A study of Mus musculus with 22 samples.

Results

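The Gadd45 family of stress genes comprises Gadd45a, Gadd45b and Gadd45g, and its members were taken as every probe whose platform gene symbol is one of these 3 names. They are 3 of the 19057 genes that have a probe of their own on the array. The rule found 6 of 45281 probes, 2 for each gene, and all 6 were among the 22622 probes detected on at least 3 of the 22 arrays (detection p under 0.05). Each array measured RNA of microdissected liver from female C3H mice on an Illumina bead array. The 3 control samples came from mice given DMSO in corn oil and matched for age. TCPOBOP, an agonist of the nuclear receptor CAR that drives hepatocyte growth, was given by gavage at 3 mg/kg once a week for 28 weeks (3 samples) or 42 weeks (7 samples). The 9 remaining samples came from mice injected once with the liver carcinogen DENA (diethylnitrosamine, 90 mg/kg) and then, after 1 week, given the same weekly TCPOBOP for 28 weeks. The labels name no transgene or mutation in any group. Per the labels, hepatocellular carcinomas were seen at 28 weeks in the DENA regimen and at 42 weeks in the TCPOBOP regimen, but for no sample is it stated whether it was tumour or surrounding liver, at what age a control was killed, or which mouse it came from. P-values therefore measure the spread between these samples, which may be partly technical.

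Gadd45 proteins are small acidic nuclear proteins without known enzyme activity that act by binding other proteins. They bind and activate the kinase Map3k4, which feeds the p38 and JNK kinases, they bind Pcna, the p21 protein encoded by Cdkn1a and the Cdk1 and cyclin B complex, and they have been linked to repair-based DNA demethylation. The genes differ in what induces them: Gadd45a is a classic p53 target of the DNA damage response, Gadd45b answers NF-kappaB and TGF-beta and binds and inhibits the JNK kinase Map2k7, and Gadd45g is induced by cytokines. In mouse liver Gadd45b is known as an early gene of the response to TCPOBOP and as a partner of CAR.

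The promoters of the 3 genes are shown as a description, and a link between their letters and the values below was not tested. All 3 genes matched the RefSeq promoter table (GRCm38), and the 250 bases before each start site are printed 5′ to 3′ on the gene's strand. They lie at chr6:67037408-67037657 (minus strand), chr10:80929841-80930090 (plus strand) and chr13:51846425-51846674 (plus strand). Capitals mark matches, on either strand, to the TATA box TATAAA, the CCAAT box CCAAT, the octamer ATTTGCAT and the E-box CACGTG.
Gadd45a: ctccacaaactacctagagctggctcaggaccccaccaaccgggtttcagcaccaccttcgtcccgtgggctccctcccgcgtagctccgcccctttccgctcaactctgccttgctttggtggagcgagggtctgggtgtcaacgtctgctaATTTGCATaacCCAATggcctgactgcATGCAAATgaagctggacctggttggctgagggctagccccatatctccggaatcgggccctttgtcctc
Gadd45b: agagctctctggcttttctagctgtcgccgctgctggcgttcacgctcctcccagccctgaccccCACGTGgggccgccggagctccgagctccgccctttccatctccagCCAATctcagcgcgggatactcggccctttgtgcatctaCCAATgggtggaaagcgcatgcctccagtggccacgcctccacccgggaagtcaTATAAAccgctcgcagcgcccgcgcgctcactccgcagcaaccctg
Gadd45g: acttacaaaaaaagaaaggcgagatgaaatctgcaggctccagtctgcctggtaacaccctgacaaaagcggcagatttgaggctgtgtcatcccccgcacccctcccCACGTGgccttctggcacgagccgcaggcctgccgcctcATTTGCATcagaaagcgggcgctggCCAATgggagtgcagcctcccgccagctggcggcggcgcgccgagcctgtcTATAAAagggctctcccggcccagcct
All 3 windows held a CCAAT box, as did 33.8% of the 32851 mouse promoter windows of the same length. It began at -86 in Gadd45a, at -139 and -100 in Gadd45b and at -78 in Gadd45g, counted from the start site. Gadd45b and Gadd45g shared a TATA box (at -46 and -27; 12.4% of windows) and an E-box (at -185 and -142; 6.02%), and neither set of letters was in the Gadd45a window. Gadd45a and Gadd45g shared the octamer, found in 1.6% of windows. It lay at -97 and, on the other strand, at -70 in Gadd45a and at -103 in Gadd45g. The letters of the cyclic AMP response element TGACGTCA (1.55% of windows), the AP-1 site TGANTCA (6.75%) and the FOXO site GTAAACA (3.17%), and the nuclear receptor repeat DR4 (0.0152%), were not in these windows. None of the searched motifs overlapped another in these windows, and a match is a stretch of letters, not evidence of binding.

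The share of probes detected on an array was 34.8% to 42.6%, and the correlation over all kept probes between arrays of a group was 0.948 to 0.991. The arrays lay on 4 slides, each holding more than 1 group, but the groups were not spread evenly. The 42-week arrays lay on slides 1 and 2 and the DENA plus TCPOBOP arrays on slides 1, 3 and 4. These groups met only on slide 1, with 3 and 2 arrays, and that slide held no control. Hepatocyte markers (7 of 8 measured) summed to 134275 to 209206 units of normalized intensity on every array, which fits the labelled tissue. Markers of some other liver cells moved with the groups. Over all genes, 3.45%, 14.6% and 11.6% rose and 2.59%, 17.3% and 14.7% fell against controls at 28 weeks, at 42 weeks and after DENA plus TCPOBOP, and the counts of list members here and below are read against these shares. Of the 7 hepatocyte markers, 0 were called at 28 weeks, 2 fell at 42 weeks and 1 fell after DENA plus TCPOBOP. Their median log2 changes were -0.03, -0.04 and -0.47. The lowest hepatocyte sum, 134275, was that of DENA plus TCPOBOP replicate 2. Of 8 Kupffer cell and macrophage markers measured, 3 rose at 28 weeks, 1 rose and 1 fell at 42 weeks and 1 rose after DENA plus TCPOBOP. Their summed intensity was 6131 to 7728 at 28 weeks against 2851 to 3369 in controls, 2013 to 6128 at 42 weeks and 2600 to 5428 after DENA plus TCPOBOP. Of 8 sinusoidal endothelial markers, 5 fell at 42 weeks and 4 after DENA plus TCPOBOP (sums of 1425 to 3632 and 1801 to 5912, against 8741 to 10364 in controls and 7561 to 8995 at 28 weeks). Of 8 stellate cell markers, 5 fell in each of these groups, and 1 rose at 42 weeks (sums of 2023 to 7522 at 42 weeks and 1870 to 8623 after DENA plus TCPOBOP, against 15447 to 18424 in controls and 13974 to 16326 at 28 weeks). At 28 weeks 1 of 3 neutrophil markers also rose, with sums of 969 to 1681 against 416 to 764 in controls, 466 to 1617 at 42 weeks and 560 to 921 after DENA plus TCPOBOP. None of 3 bile duct markers passed the test in any group (limma), and their sums were 534 to 670 at 28 weeks against 782 to 1146 in controls, 507 to 899 at 42 weeks and 426 to 1328 after DENA plus TCPOBOP. Against controls, none of 6 T and NK cell markers passed it in any group, nor did the 1 B and plasma cell marker measured. In bulk tissue, fewer cells of a type and less RNA per cell cannot be told apart. The part of these shifts in the values below was not tested.

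Gadd45a, the p53 target of the family, was higher than in controls in all 3 treated groups, and highest at 28 weeks of TCPOBOP. On the brighter of its 2 probes (ILMN_2742152) the log2 normalized intensity was 9.34, 8.89 and 9.41 in the controls and 11.35, 11.47 and 11.74 at 28 weeks. At 42 weeks it ran from 10.68 to 11.40 with a median of 11.04, and after DENA plus TCPOBOP from 9.80 to 11.80 with a median of 10.62. Every treated array was above every control array. Group means were 9.22 ± 0.28 (SD, n = 3), 11.52 ± 0.20 (n = 3), 11.04 ± 0.28 (n = 7) and 10.64 ± 0.59 (n = 9) in that order. The log2 difference from controls was 2.30 ± 0.34 (SE) at 28 weeks, or 4.94-fold (limma adjusted p = 0.000147). It was 1.82 ± 0.28 at 42 weeks, or 3.53-fold (adjusted p = 5.61e-05), and 1.42 ± 0.27 after DENA plus TCPOBOP, or 2.68-fold (adjusted p = 0.000606). These 3 differences share the control arrays. Among all kept probes, 2.77%, 13.2% and 10.4% rose in the same 3 comparisons, and 14.4%, 11.3% and 8.73% were higher without overlap between the groups.

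The dimmer Gadd45a probe (ILMN_2947568) gave the same picture. Its values were 8.23, 8.74 and 8.73 in the controls, 10.12, 10.73 and 11.15 at 28 weeks, 9.63 to 10.29 (median 10.16) at 42 weeks and 9.09 to 10.85 (median 9.99) after DENA plus TCPOBOP, again with no treated array as low as a control. It rose by 2.10, 1.5 and 1.34 on the log2 scale (limma adjusted p = 0.000410, 0.000408 and 0.00103). Over the 22 arrays the 2 probes correlated at r = 0.940, a description that includes the differences between groups. Within slides the rise was of similar size. On slide 2 the brighter probe differed from the control array by 2.13 at 28 weeks and by 1.70 at 42 weeks. On slide 4 it differed by 2.33 at 28 weeks and by 1.44 after DENA plus TCPOBOP, and on slide 3 by 1.5 after DENA plus TCPOBOP.

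The order of the Gadd45a levels was 28 weeks, 42 weeks, DENA plus TCPOBOP and controls, and the neighbours among the treated groups were not told apart. The 42-week level minus the 28-week level was -0.48 ± 0.28 on the log2 scale (limma adjusted p = 0.308, where 11.5% of kept probes were called in either direction), and the DENA plus TCPOBOP level minus the 42-week level was -0.40 ± 0.21 (adjusted p = 0.293). Both pairs of groups overlapped. DENA plus TCPOBOP minus 28 weeks, groups given TCPOBOP for the same time, was -0.88 ± 0.27 (limma adjusted p = 0.0422), in a comparison where 5.85% of all kept probes fell. That call did not hold on the dimmer probe (-0.76, adjusted p = 0.0828), with the slide as a fixed block (-0.71, adjusted p = 0.132), or when any 1 of the 28-week arrays was left out (adjusted p = 0.0997, 0.115 and 0.186). It was also lost without DENA plus TCPOBOP replicate 1, 3, 4, 5 or 9 (adjusted p = 0.0568, 0.0591, 0.0665, 0.0617 and 0.0515), while without replicate 2, the highest array of that group, it was -1.03 (adjusted p = 0.00486).

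**Figure D1:**
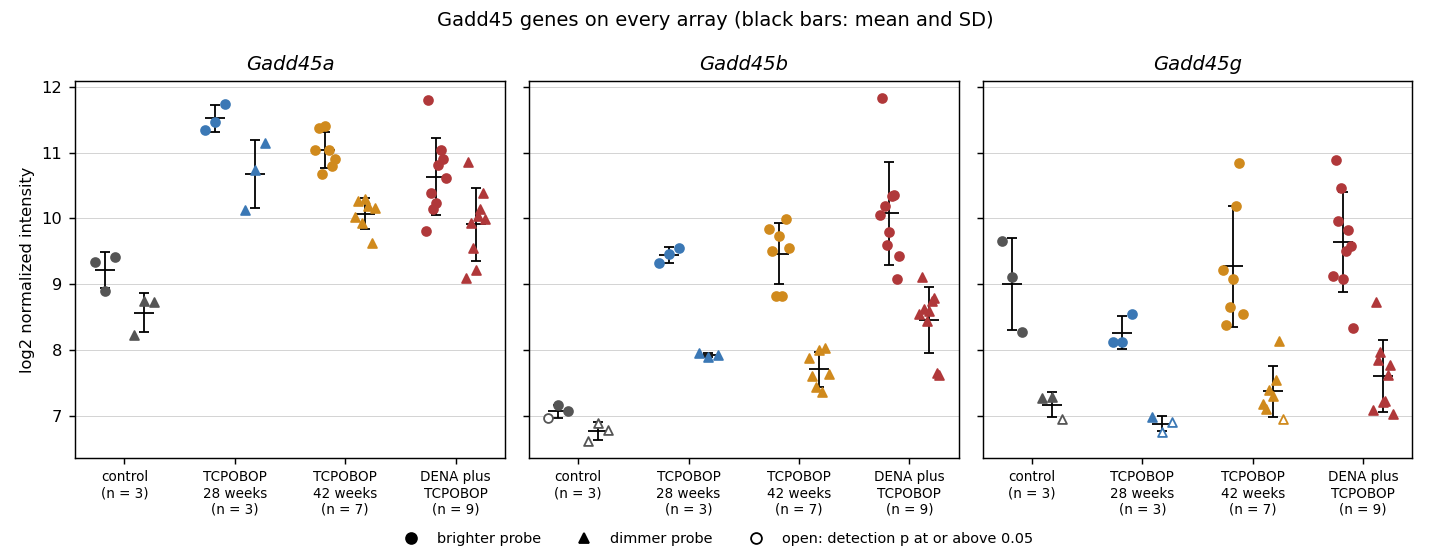
Log2 normalized intensity (vertical axis) of Gadd45a, Gadd45b and Gadd45g in the 4 groups, 1 point per array and probe, with circles for the brighter and triangles for the dimmer probe, open points where the detection p was 0.05 or more, and black bars for mean and SD. All treated arrays lie above the controls for Gadd45a and Gadd45b, and the groups overlap for the brighter Gadd45g probe.

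Gadd45b, the member tied to CAR and NF-kappaB, was near background in the controls and clearly detected in every treated sample, with the highest levels after DENA plus TCPOBOP. On its brighter probe (ILMN_2900653) the controls read 6.97, 7.17 and 7.07, of which 2 of 3 were detected. The 28-week arrays read 9.32, 9.46 and 9.56. The 42-week arrays ran from 8.82 to 9.99 with a median of 9.56, and the DENA plus TCPOBOP arrays from 9.08 to 11.83 with a median of 10.06. The lowest treated array was above the highest control. Group means were 7.07 ± 0.10 (SD, n = 3), 9.45 ± 0.12 (n = 3), 9.47 ± 0.47 (n = 7) and 10.08 ± 0.79 (n = 9), so the 28-week and control samples were the tightest. The log2 difference from controls was 2.38 ± 0.45 at 28 weeks (5.20-fold, limma adjusted p = 0.00218), 2.40 ± 0.38 at 42 weeks (5.27-fold, adjusted p = 6.65e-05) and 3.01 ± 0.37 after DENA plus TCPOBOP (8.04-fold, adjusted p = 3.24e-06). By size of the rise Gadd45b ranked 70 of the 22622 kept probes at 28 weeks, 173 at 42 weeks and 67 after DENA plus TCPOBOP.

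The size of the Gadd45b rise depended on how background was treated, and the deposited values show no sign of a background subtraction. After normexp background correction the control mean of the brighter probe moved from 7.07 to 5.36, and the log2 differences from controls became 3.84, 3.85 and 4.53 at 28 weeks, at 42 weeks and after DENA plus TCPOBOP. The dimmer probe (ILMN_1246065) was not detected in any control (6.62, 6.89 and 6.79) and was detected on all 19 treated arrays. It read 7.96, 7.89 and 7.92 at 28 weeks, 7.36 to 8.02 (median 7.63) at 42 weeks and 7.61 to 9.11 (median 8.59) after DENA plus TCPOBOP. With the controls only bounded by background, it was at least 1.92-fold, 1.66-fold and 2.78-fold higher in these groups (limma adjusted p = 0.0195, 0.00563 and 1.66e-05). The 2 probes correlated at r = 0.920 over the 22 arrays. Within slides the brighter probe differed from the control array by 2.49 on both slides that held 28-week and control arrays, by 2.56 at 42 weeks on slide 2, and by 2.81 and 2.56 after DENA plus TCPOBOP on slides 3 and 4.

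The Gadd45b levels were highest after DENA plus TCPOBOP and lowest in controls on both probes, while the order of 42 and 28 weeks was not settled. On the brighter probe the 42-week and 28-week means differed by 0.02 ± 0.38 on the log2 scale (95% interval -0.77 to 0.81, adjusted p = 0.985), so a change of that width between these times was not resolved. The sign turned on the dimmer probe (-0.22), with the slide as a fixed block (-0.16) and with normexp and median scaling (-0.13). DENA plus TCPOBOP minus 28 weeks was 0.63 ± 0.37 (adjusted p = 0.307), and DENA plus TCPOBOP minus 42 weeks was 0.61 ± 0.28 (adjusted p = 0.228) on the brighter probe. On the dimmer probe the latter was 0.75 ± 0.18 (limma adjusted p = 0.0334), in a comparison where 2.04% of kept probes were called and 1.07% rose, although the groups overlapped. With the slide as a fixed block that call was lost (0.84 ± 0.24, adjusted p = 0.309), as were all calls of this comparison, with 0 probes called in place of 461 (limma, with 2239 at an unadjusted p under 0.05). The 2 groups met only on slide 1, so group and slide could hardly be told apart in this comparison. On the dimmer probe DENA plus TCPOBOP replicates 8 and 9 lay within the range of the 42-week samples and the other 7 arrays lay above it. On slide 1, which held replicates 1 and 2, the brighter probe was 1.56 above the 42-week arrays and 1.62 above the 28-week array, whereas on slide 4, which held replicates 7 to 9, it was 0.07 above the 28-week array.

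Gadd45g, the cytokine-induced member, did not pass the test against controls in any treated group, and on its brighter probe its control samples varied more than those of the other 2 genes (SD of 0.70 against 0.28 and 0.10), though not on the dimmer probe (0.20 against 0.29 and 0.14). On its brighter probe (ILMN_2903945) the controls read 9.66, 9.10 and 8.27, a wider spread than the whole 28-week group at 8.12, 8.12 and 8.55. At 42 weeks the values ran from 8.38 to 10.85 (median 9.08), with replicates 5 and 6 at 10.19 and 10.85 and the other arrays of the group at 9.21 or below. After DENA plus TCPOBOP they ran from 8.33 to 10.88 (median 9.57). Group means were 9.01 ± 0.70 (SD, n = 3), 8.26 ± 0.25 (n = 3), 9.27 ± 0.92 (n = 7) and 9.64 ± 0.76 (n = 9), and every pair of groups overlapped on this probe. Differences from controls were -0.74 ± 0.59 at 28 weeks (95% interval -1.96 to 0.48, limma adjusted p = 0.597), 0.26 ± 0.50 at 42 weeks (-0.77 to 1.29, adjusted p = 0.743) and 0.63 ± 0.48 after DENA plus TCPOBOP (-0.36 to 1.63, adjusted p = 0.395). Against controls, 5.19%, 28.8% and 23% of all kept probes were called in either direction. Within slides the difference from the control array was -1.53 and 0.28 at 28 weeks on slides 2 and 4, 0.01 at 42 weeks on slide 2, and 0.65 and 0.98 after DENA plus TCPOBOP on slides 3 and 4.

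The largest Gadd45g difference was between the 2 groups sampled at 28 weeks of TCPOBOP. DENA plus TCPOBOP minus 28 weeks was 1.38 ± 0.48 on the log2 scale, or 2.59-fold, with a limma adjusted p of 0.0689 that missed the threshold, in a comparison where 4.96% of kept probes rose. It passed with normexp and quantile normalization (1.70, adjusted p = 0.0450), with normexp and cyclic loess (1.68, adjusted p = 0.0431), with array weights (1.30, adjusted p = 0.0194), in a fit to these 2 groups alone (adjusted p = 0.0499) and without DENA plus TCPOBOP replicate 9, the lowest of its group (1.54, adjusted p = 0.0328). An exact two-sided permutation test on the probe alone gave p = 0.0182, which was not adjusted. The unadjusted limma p of the same difference was 0.00912. The dimmer probe (ILMN_2744890) differed by 0.73 ± 0.27 (adjusted p = 0.0907). It read 6.98, 6.75 and 6.91 at 28 weeks, with 1 of 3 arrays detected, and 7.02 to 8.72 after DENA plus TCPOBOP, with 9 of 9 detected, so these groups did not overlap on it, as for 5.52% of kept probes in that direction. In controls this probe read 7.27, 7.29 and 6.94, and at 42 weeks 6.96 to 8.13. The 42-week minus 28-week difference on the brighter probe was 1.01 ± 0.50 (limma adjusted p = 0.212), and DENA plus TCPOBOP minus 42 weeks was 0.37 ± 0.36 (adjusted p = 0.616). The 2 Gadd45g probes correlated at r = 0.900 over the 22 arrays.

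**Figure D2:**
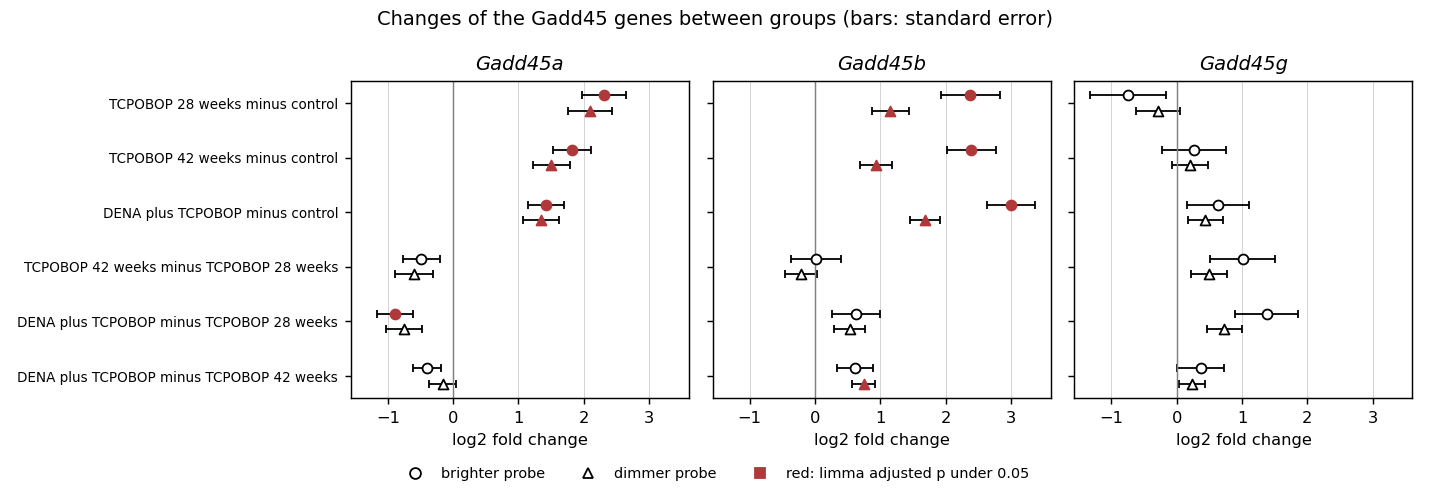
Log2 fold change (horizontal axis) of each Gadd45 probe in the 6 comparisons of groups, with standard error bars, circles for the brighter and triangles for the dimmer probe, and red where the limma adjusted p was under 0.05. Gadd45a and Gadd45b are red in all 3 comparisons with controls on both probes, and every Gadd45g point is unfilled.

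Whether the 3 genes differed from one another in how they changed was tested on the difference of their log2 changes, with exact two-sided permutation tests adjusted over 18 comparisons. Some pairs of genes passed, and Gadd45a and Gadd45g were told apart against controls in no group. After DENA plus TCPOBOP against controls, the change of Gadd45a minus that of Gadd45b was -1.59 ± 0.30 (exact test, adjusted p = 0.0327), and that of Gadd45b minus Gadd45g was 2.38 ± 0.49 (adjusted p = 0.0224). The former was -0.96 on the mean of both probes and missed the threshold (exact test, adjusted p = 0.0909). Without any 1 of the controls both missed it (exact test, adjusted p = 0.125, 0.0655 and 0.0935 for the former and 0.0818, 0.0655 and 0.0818 for the latter). Leaving out 1 of 3 controls raises the smallest p that an exact test can give, so these misses cannot show that the differences rest on 1 array. Gadd45a minus Gadd45g was 0.79 ± 0.53 in that comparison (exact test, adjusted p = 0.159) and 1.56 ± 0.61 at 42 weeks against controls (adjusted p = 0.14). Against 28 weeks of TCPOBOP, DENA plus TCPOBOP gave -1.51 ± 0.22 for Gadd45a minus Gadd45b and -2.26 ± 0.24 for Gadd45a minus Gadd45g (exact test, adjusted p = 0.0224 for each). Without any 1 of the 28-week arrays the adjusted p of this exact test was 0.0545 for each, under the same limit on the smallest p. By value, Gadd45a was lower and Gadd45b and Gadd45g were higher in the DENA samples than in the 28-week samples. Against 42 weeks, Gadd45a minus Gadd45b was -1.01 ± 0.28 in the DENA plus TCPOBOP samples (exact test, adjusted p = 0.0224). These 2 groups met only on slide 1 and the test took no account of the slide, so group and slide could hardly be told apart. At 28 weeks against controls Gadd45a exceeded Gadd45g by 3.05 and Gadd45b exceeded it by 3.12, but 3 arrays against 3 cannot give an exact p below 0.1 (adjusted p = 0.14 for both). At 28 weeks against controls Gadd45a and Gadd45b rose by close amounts on the brighter probes (difference -0.07 ± 0.22, exact test, adjusted p = 0.8). That closeness depended on the probe and on the background, since Gadd45b was near background in the controls. On the dimmer probes the rises were 2.10 and 1.15. With normexp correction the brighter-probe means went from 8.92 to 11.44 for Gadd45a and from 5.36 to 9.20 for Gadd45b. At 42 weeks against controls, Gadd45b minus Gadd45g was 2.13 ± 0.56, at the threshold (exact test, adjusted p = 0.05), and Gadd45a minus Gadd45b was -0.58 ± 0.28 (adjusted p = 0.15). With normexp correction these became 3.55 and -1.84 (exact test, adjusted p = 0.0214 for each).

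DENA plus TCPOBOP replicate 2 was the highest array of its group for all 3 genes, at 11.80 for Gadd45a, 11.83 for Gadd45b and 10.88 for Gadd45g. It also stood apart in immediate early genes such as Fos and Egr1, which are transcribed within minutes of a stimulus. The 16 measured immediate early genes summed to 60138 units of normalized intensity on that array, against 7283 to 16171 on the others of its group, 7276 to 10754 in controls, 7620 to 8250 at 28 weeks and 5729 to 10297 at 42 weeks. Of these genes, 13 of 16 were at their highest of all 22 arrays there, as were 6.06% of all 11975 genes. The stress factor Atf3 read 13.23 on it against 9.33 on the next highest array, Fos 11.74 against 9.99 and Egr1 13.40 against 12.21. Without that array the DENA plus TCPOBOP minus control difference was 1.27 ± 0.22 for Gadd45a, 2.79 ± 0.26 for Gadd45b and 0.48 ± 0.46 for Gadd45g (limma adjusted p = 0.000193, 1.29e-07 and 0.522). For Gadd45b the difference from 42 weeks was 0.39 without it (limma adjusted p = 0.273) and 0.61 with it (adjusted p = 0.228).

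**Figure D3:**
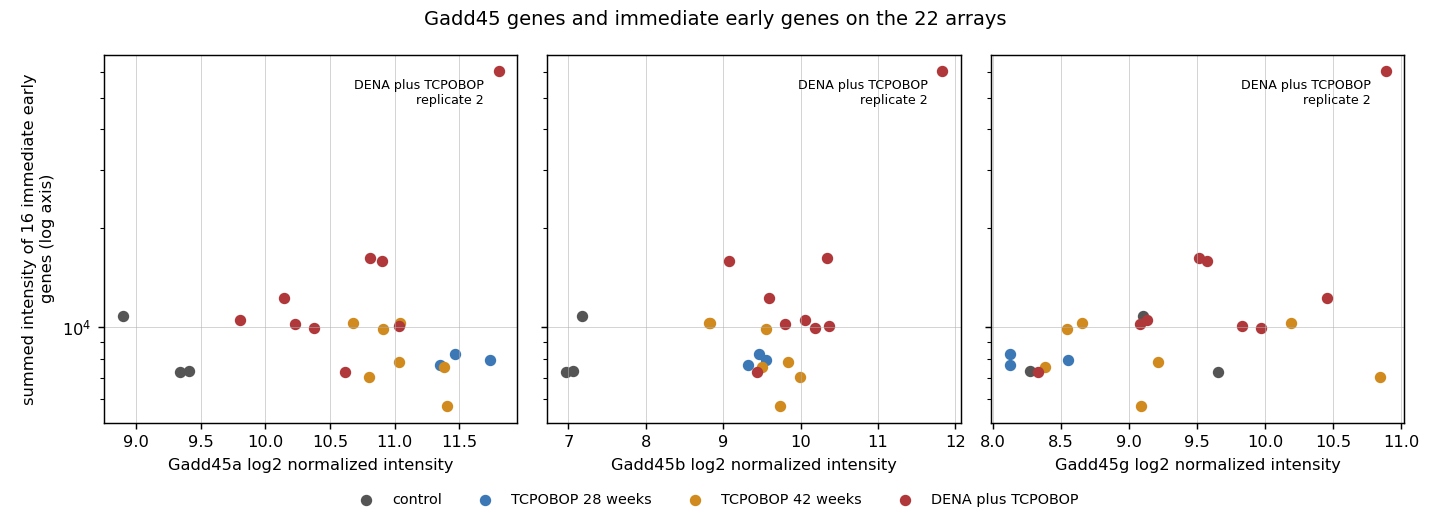
Summed normalized intensity of the 16 measured immediate early genes (vertical axis, log scale) against the log2 normalized intensity of the brighter probe of each Gadd45 gene (horizontal axes), 1 point per array, coloured by group. DENA plus TCPOBOP replicate 2 sits at 60138, apart from the other 21 arrays.

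Within the larger groups no pair of the 3 genes passed a test of varying together. Over the 9 DENA plus TCPOBOP arrays Pearson's r was 0.62 for Gadd45a with Gadd45b (Spearman's rho 0.43), 0.46 for Gadd45a with Gadd45g (rho 0.35) and 0.61 for Gadd45b with Gadd45g (rho 0.47), with exact permutation p adjusted over 6 relations of 0.25, 0.409 and 0.25. The adjusted p for rho was 0.538 for all 3 pairs. Without the 2 arrays farthest from the median of the pair's first gene, r fell to 0.14, -0.17 and 0.36. Replicate 2 was among those left out each time. Leaving out the extremes of 1 gene narrows its range, which by itself can lower r, so the cause of the fall cannot be read from it. Over the 7 arrays at 42 weeks r was 0.27, -0.28 and 0.18 for the same pairs (rho 0.07, -0.18 and 0.46). Without the 2 arrays farthest from the median these became -0.32, -0.62 and 0.93 over 5 arrays, too few for a correlation to be read. No slide held more than 4 arrays of a group, too few for a value within slides. At 42 weeks the exact permutation p adjusted over the 6 relations was 0.679, 0.679 and 0.747 for r, and 0.906, 0.856 and 0.538 for rho.

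The genes whose log2 levels were most like each member over the 22 arrays, among 11972 genes, are given as a description that includes the differences between groups. For Gadd45a they were E2f3, a cell cycle transcription factor (r = 0.833), Fgfr1op2 (0.824), Fndc5, the precursor of irisin (0.801), Sqstm1, an autophagy receptor (0.793), and Sar1b, a GTPase of vesicle export (0.793). E2f3, detected in 2 of 3 controls, rose by 1.03, 1.24 and 1.04 on the log2 scale at 28 weeks, at 42 weeks and after DENA plus TCPOBOP (limma adjusted p = 0.000359, 8.63e-07 and 6.37e-06). For Gadd45b they were Ccdc120 (r = 0.886), Alas1, the rate-limiting enzyme of heme synthesis (0.883), Gpd1l (0.876), Ptges, a prostaglandin E synthase (0.875), and Prss8, a membrane serine protease (0.871). Alas1 rose by 1.41, 1.52 and 1.47 (limma adjusted p = 1.65e-05, 1.32e-07 and 1.36e-07), and Ptges, detected in 1 of 3 controls, by 2.88, 3.39 and 3.89 (adjusted p = 8.55e-07, 1.39e-09 and 8.43e-11). Without DENA plus TCPOBOP replicate 2 the r of Alas1 was 0.929. For Gadd45g they were Tg, the thyroglobulin gene (r = 0.809), Pfkfb2, which sets the level of fructose 2,6-bisphosphate (0.790), Fhdc1 (0.786), Ahsa2 (0.769) and Slc17a6, a glutamate transporter (0.763). Like Gadd45g, these 5 genes did not pass the test against controls in any treated group, with adjusted p from 0.0861 to 0.982. The probes of Tg and Slc17a6 were not above background in any control, and that of Tg on none of the 28-week arrays. Slc17a6 was detected on 1 of 3 arrays at 28 weeks and 1 of 7 at 42 weeks. Fhdc1 was detected in 1 of 3 controls, on 1 of 3 arrays at 28 weeks and on 3 of 7 at 42 weeks. These probes therefore lay near background on many arrays, where a likeness or a missed threshold says little. Within the 7 arrays at 42 weeks, where Gadd45g was highest in replicates 5 and 6, r with Gadd45g was 0.968 for Tg and 0.931 for Pfkfb2, and over the 9 DENA plus TCPOBOP arrays it was 0.673 and 0.383. For Fndc5 with Gadd45a it was close to 0 in the former group and 0.22 in the latter. With Gadd45b, r in the same 2 groups was -0.07 and 0.55 for Ptges and 0.80 and 0.65 for Alas1. It was 0.66 and 0.70 for Ccdc120, 0.51 and 0.66 for Gpd1l and 0.82 and 0.46 for Prss8.

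Most of the kinases that Gadd45 proteins act through missed the threshold in each comparison with controls. Those that passed the test moved in both directions, by at most 0.76 on the log2 scale. Of 14 genes of that MAPK arm, 11 were measured. At 28 weeks all 11 missed the threshold (limma), among them Map2k3, a p38 kinase, at 0.52 (adjusted p = 0.0552), where 3.45% of all genes rose and 2.59% fell. At 42 weeks 2 rose and 1 fell, against 14.6% and 17.3% of all genes, and after DENA plus TCPOBOP 1 rose and 4 fell, against 11.6% and 14.7%. Apart from the 4 falls, the counts at 42 weeks and after DENA plus TCPOBOP were near or below these shares. Map2k3 rose by 0.60 and 0.76 in these groups (limma adjusted p = 0.00145 and 0.000130), the former lost with normexp and median scaling (0.51, adjusted p = 0.0968). The JNK kinase Map2k4 fell by 0.55 after DENA plus TCPOBOP (adjusted p = 0.0167), a call lost without control replicate 1 or 3 (adjusted p = 0.0835 and 0.0795) and with normexp and median scaling (0.0556). Mapk9, which encodes JNK2, fell by 0.56 (adjusted p = 0.0109) on its brightest probe but not on 2 others of opposite sign, and was lost without control replicate 1 (adjusted p = 0.0870). Mapk12, a p38 isoform, fell by 0.33 at 42 weeks and fell by 0.40 after DENA plus TCPOBOP (adjusted p = 0.0278 and 0.00802), calls lost without control replicate 2 (adjusted p = 0.152 and 0.0664) and, at 42 weeks, without control replicate 3 (0.0571), with the slide as a fixed block (0.142) and in a fit to the 2 groups alone (0.0780). Map3k5, an upstream kinase of the same arm, was not above background in any control and was detected on 5 of 7 arrays at 42 weeks, where it was at least 1.14-fold higher (group means of 7.16 and 6.81 log2 units, limma adjusted p = 0.0171). That call was lost without control replicate 2 (0.0783) and with the slide as a fixed block (0.0664), and 1 of its 3 probes had the other sign. The list's median change was -0.10, -0.13 and -0.10 in the 3 groups, beside -0.02, -0.01 and -0.01 over all genes.

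Of 6 cell cycle partners, 4 were measured. Cdk1, the mitotic kinase that Gadd45 proteins inhibit, was detected in only 1 of 3 controls, so that the size of its change depends on background, and rose by 1.66 at 42 weeks (limma adjusted p = 0.000487) and by 1.06 after DENA plus TCPOBOP (adjusted p = 0.0161, lost without control replicate 2 or 3, at 0.0657 and 0.0724). Its second probe had the other sign at 42 weeks. Gadd45gip1, whose product binds Gadd45 proteins and serves the mitochondrial ribosome, fell in the 3 groups (log2 changes of -0.52, -0.46 and -0.34, limma adjusted p = 0.00975, 0.00128 and 0.0134), with its second probe of the other sign at 28 weeks and the first and last calls lost without control replicate 2 (adjusted p = 0.0838 and 0.168) and with normexp and median scaling (0.211 and 0.108). Cdkn1a, a binding partner and p53 target named here after its values were seen, was 0.10, 0.96 and 0.79 above controls (limma adjusted p = 0.961, 0.0872 and 0.175). Of 10 DNA demethylation partners only 3 were measured. Tdg, the thymine DNA glycosylase, rose by 0.68 at 42 weeks (limma adjusted p = 0.0117, lost without control replicate 1 at 0.0535), and the repair nuclease Ercc5 differed by -0.19 at 28 weeks and by -0.22 after DENA plus TCPOBOP (adjusted p = 0.609 and 0.216).

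Of 20 factors known to act upstream of the Gadd45 genes, 14 were measured. At 28 weeks 1 fell (2.59% of all genes did), at 42 weeks 1 rose and 3 fell (14.6% and 17.3%), and after DENA plus TCPOBOP 3 rose and 3 fell (11.6% and 14.7%). Nr1i3, which encodes CAR, the receptor of TCPOBOP, fell in the 3 groups on its brightest probe (log2 changes of -1.81, -0.93 and -0.80, limma adjusted p = 0.000690, 0.00982 and 0.0241), while 2 of its 5 probes had the other sign. The last of these calls was lost without any 1 control (adjusted p = 0.105, 0.0701 and 0.0615). With the replicate number as a block, the last 2 calls were lost (adjusted p = 0.0564 and 0.227). Cebpa, a hepatocyte factor that restrains growth, fell by 1.45 at 42 weeks and fell by 1.25 after DENA plus TCPOBOP (limma adjusted p = 6.22e-05 and 0.000233). Smad2, a TGF-beta effector, fell in the same groups (log2 changes of -0.44 and -0.57, adjusted p = 0.01 and 0.00120), the former lost without control replicate 2 (0.0603), with the slide as a fixed block (0.0793) and with normexp and median scaling (0.0835). Myc was not above background in any control and was at least 1.23-fold higher at 42 weeks (group means of 7.28 and 6.77 log2 units, limma adjusted p = 0.00796), a call lost without control replicate 2 (0.0640) and with the slide as a fixed block (0.0608). Cebpb, an inflammatory factor, rose by 0.92 after DENA plus TCPOBOP (adjusted p = 0.0237), a call lost without any 1 control (0.101, 0.0528 and 0.0815), with normexp and cyclic loess or median scaling (0.0558 and 0.154) and in a fit to the 2 groups alone (0.0722). Trp53, the gene of p53, had no probe that could be used for it here.

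Of 14 other p53 targets 12 were measured. At 28 weeks 1 fell (2.59% of all genes did), at 42 weeks 2 rose and 2 fell (14.6% and 17.3%), and after DENA plus TCPOBOP 1 rose and 2 fell (11.6% and 14.7%). The counts at 42 weeks and after DENA plus TCPOBOP were thus near the shares of all genes. Bbc3, which encodes the apoptosis inducer Puma, fell in the 3 groups (log2 changes of -1.03, -1.56 and -1.17, limma adjusted p = 0.00567, 1.91e-06 and 5.24e-05), the first lost with normexp and median scaling (-1.13, adjusted p = 0.0904). Perp, a junction protein linked to p53-driven death, fell by 0.77 at 42 weeks and fell by 0.72 after DENA plus TCPOBOP (adjusted p = 0.000352 and 0.000641), where it was detected on 2 of 7 and 6 of 9 arrays. Mdm2, the ubiquitin ligase of p53, rose by 0.64 and 0.58 (adjusted p = 0.00429 and 0.00889), the latter lost without control replicate 3 (0.0939) and with the replicate number as a block (0.0833). Tnfrsf10b, a death receptor, rose by 0.52 at 42 weeks (adjusted p = 0.0462), and its adjusted p ran from 0.00965 to 0.390 over the alternatives. The list's median change was -0.01, 0.18 and 0.34 at 28 weeks, at 42 weeks and after DENA plus TCPOBOP, beside -0.02, -0.01 and -0.01 over all genes.

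Of 12 genes of the integrated stress response, all measured, 1 rose at 28 weeks (3.45% of all genes did), 1 rose and 1 fell at 42 weeks (14.6% and 17.3%), and 3 rose and 1 fell after DENA plus TCPOBOP (11.6% and 14.7%). Trib3, a pseudokinase induced by Atf4 and Ddit3, rose by 2.29, 3.27 and 2.71 (limma adjusted p = 0.000522, 1.39e-07 and 1.18e-06). Ddit4, an inhibitor of mTOR signalling, rose by 1.04 after DENA plus TCPOBOP (adjusted p = 0.00936, lost without control replicate 3 at 0.0517). Herpud1, a gene of the endoplasmic reticulum stress response, fell by 1.04 at 42 weeks and fell by 0.76 after DENA plus TCPOBOP (adjusted p = 0.00144 and 0.0149), the latter lost without control replicate 1 (0.0955). The median change of the list was 0.01, 0.36 and 0.71 in the 3 groups, beside -0.02, -0.01 and -0.01 over all genes. Of 19 immediate early genes, 16 were measured, and 1 rose at 28 weeks, 3 rose and 2 fell at 42 weeks, and 3 rose and 1 fell after DENA plus TCPOBOP, against the same shares of all genes. Jun, a target of the JNK pathway, rose by 1.22, 1.62 and 1.91 (limma adjusted p = 0.0211, 7.59e-05 and 8.55e-06), the first of these lost without control replicate 1 or 3 or without 28-week replicate 1 or 2 (adjusted p = 0.0653, 0.0853, 0.0722 and 0.107). Klf6, a growth-restraining zinc finger factor, rose by 1.60 and 2.25 at 42 weeks and after DENA plus TCPOBOP (adjusted p = 0.00533 and 0.000246), the former lost with the slide as a fixed block (1.16, adjusted p = 0.0838). Ier3, a survival gene of the NF-kappaB response, rose by 2.05 after DENA plus TCPOBOP (adjusted p = 0.00120). Klf2, a flow-responsive endothelial factor, fell at 42 weeks and after DENA plus TCPOBOP (log2 changes of -0.74 and -0.55, adjusted p = 0.000784 and 0.00761), the latter lost without control replicate 2 or 3 (0.0622 and 0.0568), beside the fall of endothelial markers given above, whose part was not tested. Zfp36, which promotes mRNA decay, fell by 1.04 at 42 weeks (adjusted p = 0.0453), with adjusted p from 0.000328 to 0.144 over the alternatives.

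**Figure D4:**
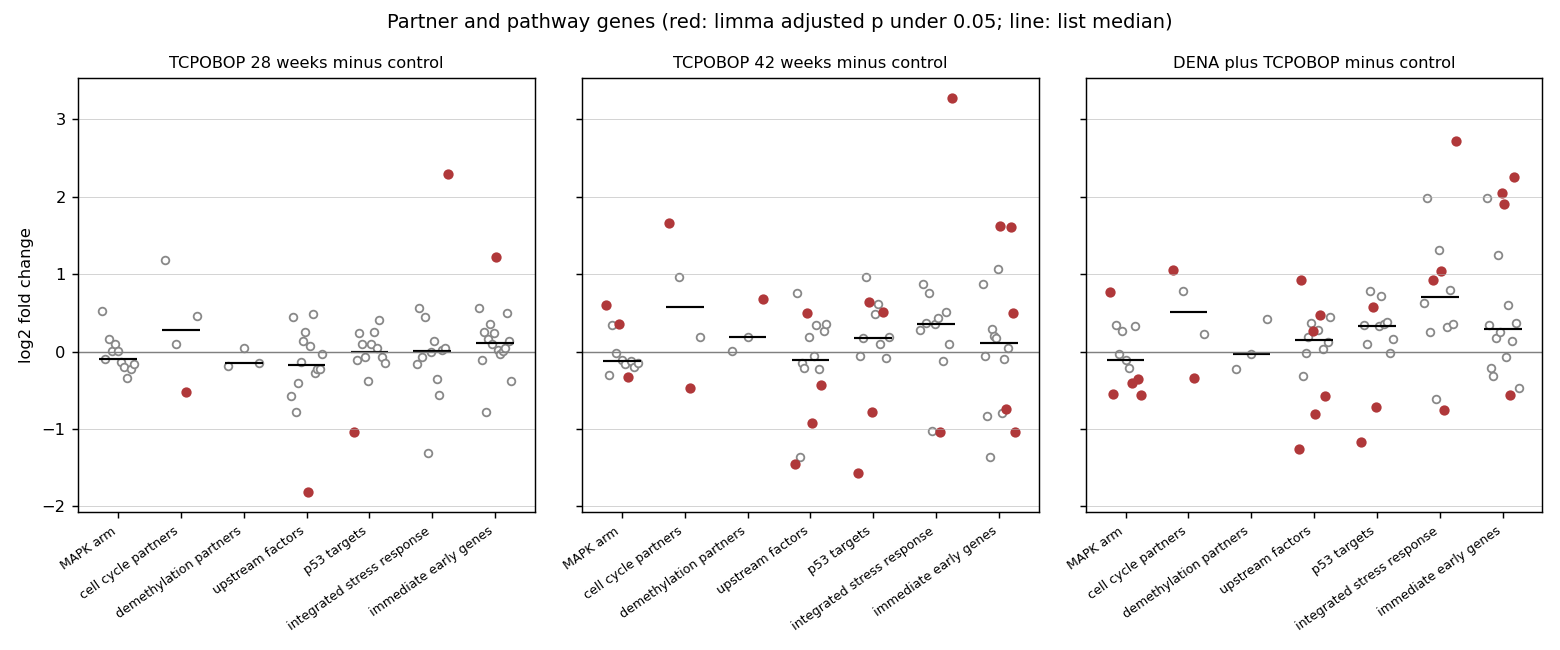
Log2 fold change against controls (vertical axis) of each measured gene of the 7 partner and pathway lists in the 3 treated groups, with red for a limma adjusted p under 0.05 and a black line at each list's median. Red points lie on both sides of 0 in each group, and Trib3 at 3.27 is the highest point at 42 weeks.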

How the data were processed

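Per the labels, RNA was extracted with a mirVana kit and labelled as biotin cRNA, and the submitters' processing notes name BeadStudio 3.0.19.0. The authors deposited a table of normalized intensity with a detection p-value per probe and array, and a table of non-normalized intensity. The normalization method is not given in the sources used here. The deposited series values equal the normalized table (largest relative difference 0).

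Groups and replicate numbers came from the sample titles, slides from the array names in the labels. The title abbreviation of the 3 control arrays was read as the vehicle group, since the series text lists 3 controls. The study's second protocol was not used here.

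Log2 of the normalized intensity was fitted per probe with limma 3.58.1 (R 4.3.3, lmFit and eBayes) over all 22 arrays, for 22622 of 45281 probes with detection p under 0.05 on at least 3 arrays. P-values were adjusted by Benjamini-Hochberg over these probes for each of 6 comparisons, with a threshold of 0.05. A gene was read on its brightest kept probe, and both probes of each Gadd45 gene are given. Of all probes, 34885 had 1 gene symbol, 18 several and 10378 none in the platform annotation. Differences between members and correlations used exact permutation tests. The precision is limited by the number of arrays. The fit was tested on simulated data.

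The genes named are the members, the 5 genes with the highest Pearson r with each member, and up to 4 called genes of each list with the largest change against controls (or the 2 with the smallest p), plus Nr1i3 and Trp53. The members and lists were chosen with earlier results of these data known, so none of them is independent evidence. The alternatives were normexp background correction with quantile, cyclic loess or median scaling, other filters on dim probes, the slide as a block, the replicate number as a block, array weights, moderated fits with a trend, fits to 2 groups, the mean of a gene's probes, the dimmer probe, and leaving out each array. Replicate numbers 1 to 3, the only ones checked, did not pair the samples.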

Additional observations from a re-analysis of the deposited data

Results flagged for a closer look

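Gadd45b in DENA plus TCPOBOP replicate 2 read 11.83 on the brighter probe, and the next highest of the 9 arrays of that group read 10.36, a gap wide enough for Dixon's test at its 95% level. It was the only array to stand out in this way among 12 sets of values tested (6 probes in the 2 groups of 7 and 9 arrays), and chance alone flags about 1 in 20 such sets. The same array was also the highest of its group for Gadd45a and Gadd45g, at 11.80 and 10.88. Without it the Gadd45b difference from controls was 2.79 in place of 3.01.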

How the results depend on the processing

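Over the alternatives and left-out arrays, 481 of 504 values of the Gadd45 changes kept their direction and their side of the threshold, 16 lost the call, 7 gained it and none changed direction among called values. The rises of Gadd45a and Gadd45b over controls passed in every setting except the exact permutation test at 28 weeks (p = 0.1, the smallest that 3 against 3 arrays allow, with differences of 2.30 and 2.38). DENA plus TCPOBOP minus 28 weeks was the least settled comparison. For Gadd45a it lost the call with no filter on dim probes (-0.88, adjusted p = 0.0769), with the slide as a fixed block (-0.71), in a fit to these 2 groups alone (-0.88, adjusted p = 0.0999) and on the dimmer probe without (-0.76) and with the slide as a fixed block (-0.75, adjusted p = 0.113), and ran from -1.03 to -0.77 with 1 array left out. For Gadd45g it gained the call at 1.70 (normexp, quantile), 1.68 (normexp, cyclic loess), 1.30 (array weights) and 1.38 (2 groups alone, and the exact test by its unadjusted p), and ran from 1.22 to 1.54 with 1 array left out. Gadd45b in DENA plus TCPOBOP minus 42 weeks passed on the dimmer probe only (0.75), and not there with the slide as a fixed block (0.84). The use of the dimmer probes was chosen after seeing the data.

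Same-numbered samples among replicates 1 to 3 did not deviate together (r from -0.222 to 0.182 over 18 pairs of samples, 5 of them above 0.1). Higher replicate numbers were not checked. With the replicate number as a block, Gadd45a in DENA plus TCPOBOP minus 28 weeks was -0.89 (limma adjusted p = 0.144), and the block moved no other call of the 3 genes. Of the partner and pathway genes named above, that block lost Mapk12 (limma adjusted p = 0.0550), Nr1i3 (0.0564) and Zfp36 (0.144) at 42 weeks. It also lost Gadd45gip1 (0.0790), Nr1i3 (0.227) and Mdm2 (0.0833) after DENA plus TCPOBOP, and gained Map2k3 at 28 weeks (0.0196).

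Among differences between members, 285 of 306 values kept their side of the threshold. At 42 weeks against controls Gadd45a minus Gadd45b passed with normexp and quantile, cyclic loess or median scaling (-1.84, -1.85 and -1.82), as did Gadd45b minus Gadd45g (3.55, 3.52 and 3.52). On the mean of both probes Gadd45a minus Gadd45b in DENA plus TCPOBOP minus control was -0.96 and missed it. With 1 array left out, DENA plus TCPOBOP minus control ran from -1.80 to -1.47 for Gadd45a minus Gadd45b and from 2.00 to 2.74 for Gadd45b minus Gadd45g. Against 28 weeks it ran from -1.67 to -1.41 for Gadd45a minus Gadd45b and from -2.42 to -2.10 for Gadd45a minus Gadd45g. Gadd45b minus Gadd45g at 42 weeks against controls ran from 1.76 to 2.50, and Gadd45a minus Gadd45g in DENA plus TCPOBOP minus 42 weeks from -1.07 to -0.56. Leaving out an array also raises the smallest p that an exact test can give. The within-group correlations moved to -0.32, -0.62 and 0.93 at 42 weeks and to 0.14, -0.17 and 0.36 after DENA plus TCPOBOP without the 2 arrays farthest from the median of the pair's first gene.

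The number of probes called moved by over 1.5 times in some settings. At 28 weeks against controls it was 1175, and 3053 with array weights, 3020 in a fit to the 2 groups alone, and 676 to 767 without any 1 of the control or 28-week arrays. For 42 weeks minus 28 weeks it was 2608, and 1629 with normexp and median scaling, 4284 with array weights, and 1174 to 1425 without any 1 of the 28-week arrays. For DENA plus TCPOBOP minus 28 weeks it was 2447, and 4495 with array weights and 1005 to 1240 without any 1 of the 28-week arrays. For DENA plus TCPOBOP minus 42 weeks it was 461, and 4 with normexp and median scaling, 237 with no filter, 209 with the slide as a random block, 203 in a fit to the 2 groups alone and 0 with the slide as a fixed block (limma, with 2239 at an unadjusted p under 0.05), and it ran from 176 to 1317 with 1 array left out. The cause of these shifts was not tested. Probes at the level of Gadd45b in the controls lie near background, where the fold depends on the background correction.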
